A study of Caenorhabditis elegans with 4 samples.

Results

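The acyl-CoA synthetase (acs), acyl-CoA dehydrogenase (acdh) and enoyl-CoA hydratase (ech) genes of the nematode Caenorhabditis elegans were compared between wild-type L3 larvae and a wild-type mixed reference RNA. The members were all genes whose current symbol starts with acs-, acdh- or ech- followed by a number and that were measured on 3 or more of the 4 arrays. They numbered 43 of the 19943 genes and unnamed probes tested, namely 22 acs, 12 acdh and 9 ech genes, and each had a value on 4 arrays. The RefSeq gene table of assembly WBcel235 lists 1 more gene with each prefix, acs-13, acdh-10 and ech-7, and these were not analysed here. It lists acs-23 as a pseudogene. Symbols are used for enzyme classes by sequence, so a prefix does not fix the substrate of an enzyme.

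RNA of whole L3 larvae, the stage that follows the second moult, was hybridised to 2-colour DNA microarrays, with 1 of 4 numbered L3 preparations in the second channel of each array and the reference in the first. Per the labels both RNAs were wild type; no treatment or mutant is named, and the make-up of the mixed reference is not described in the labels. Values are log2 ratios after centring each array on its median. A positive value means more transcript in L3, a direction that is likely rather than certain, since the dyes are unlabelled and only the wording of the descriptions, L3 versus reference, gives it. Means are given ± SD over the 4 preparations, and a gene was called where limma's Benjamini-Hochberg adjusted p over all 19943 genes and probes was under 0.05. Nothing in the labels says that the preparations came from separate cultures, so p-values reflect how far these 4 preparations differed from each other, a spread that may be technical. The reference was in 1 channel throughout, so dye and RNA differences of a single probe cannot be told apart. Correlations between arrays over all probes lay between 0.620 and 0.723.

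Fatty acids enter metabolism only after a synthetase has joined them to coenzyme A. In the mitochondrion and the peroxisome, an acyl-CoA dehydrogenase or oxidase then puts in a double bond, an enoyl-CoA hydratase adds water across it, a hydroxyacyl-CoA dehydrogenase oxidises the alcohol and a thiolase releases acetyl-CoA. The same enzyme classes break down branched-chain amino acids and propionate. In C. elegans much of this takes place in the intestine, the main fat store, and acyl-CoA genes respond to diet, to fasting and to vitamin B12.

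Markers of whole-animal composition differed between L3 and the reference. In limma all 3 yolk protein genes, all 9 measured oocyte and eggshell genes, 3 of 5 sperm genes and the adult collagen gene col-19 were lower in L3. The oocyte list had medians of -4.76 to -3.74 in single preparations and the yolk list -6.80 to -4.95. Of 10 intestinal genes 6 were higher and 0 lower in L3 (list medians 0.96 to 2.14 in single preparations). The intestinal genes elt-2 (mean 0.33), elt-7 (-0.14), cpr-1 (-0.02) and asp-1 (-0.23) did not pass. All 4 body wall muscle and all 5 larval epidermis genes were higher. Over all genes and probes tested, 8.31% were called higher and 10.8% lower. In RNA of whole animals, fewer cells of a type and less RNA per cell cannot be told apart. The part of tissue composition in the ratios of the acs, acdh and ech genes was not tested.

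Of the 43 members 16 were called higher in L3, 3 lower, and 24 did not pass in limma. Over all genes and probes tested, 8.31% were called higher and 10.8% lower, 19.1% in either direction. The 3 prefixes differed in their counts, although the difference between them was not tested. Among acs genes 5 were higher and 3 lower with a median of 0.14. Among acdh genes 6 were higher and 0 lower with a median of 0.61, and among ech genes 5 were higher and 0 lower with a median of 0.72. The median over all genes and probes tested was 0.02. At an unadjusted p under 0.05, 9 acs, 6 acdh and 6 ech genes passed, the acdh and ech genes all higher in L3, against 35.1% of all genes and probes. The means of 13 acs, 12 acdh and 6 ech genes were above 0, against 51.6% of all genes and probes.

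**Figure D1:**
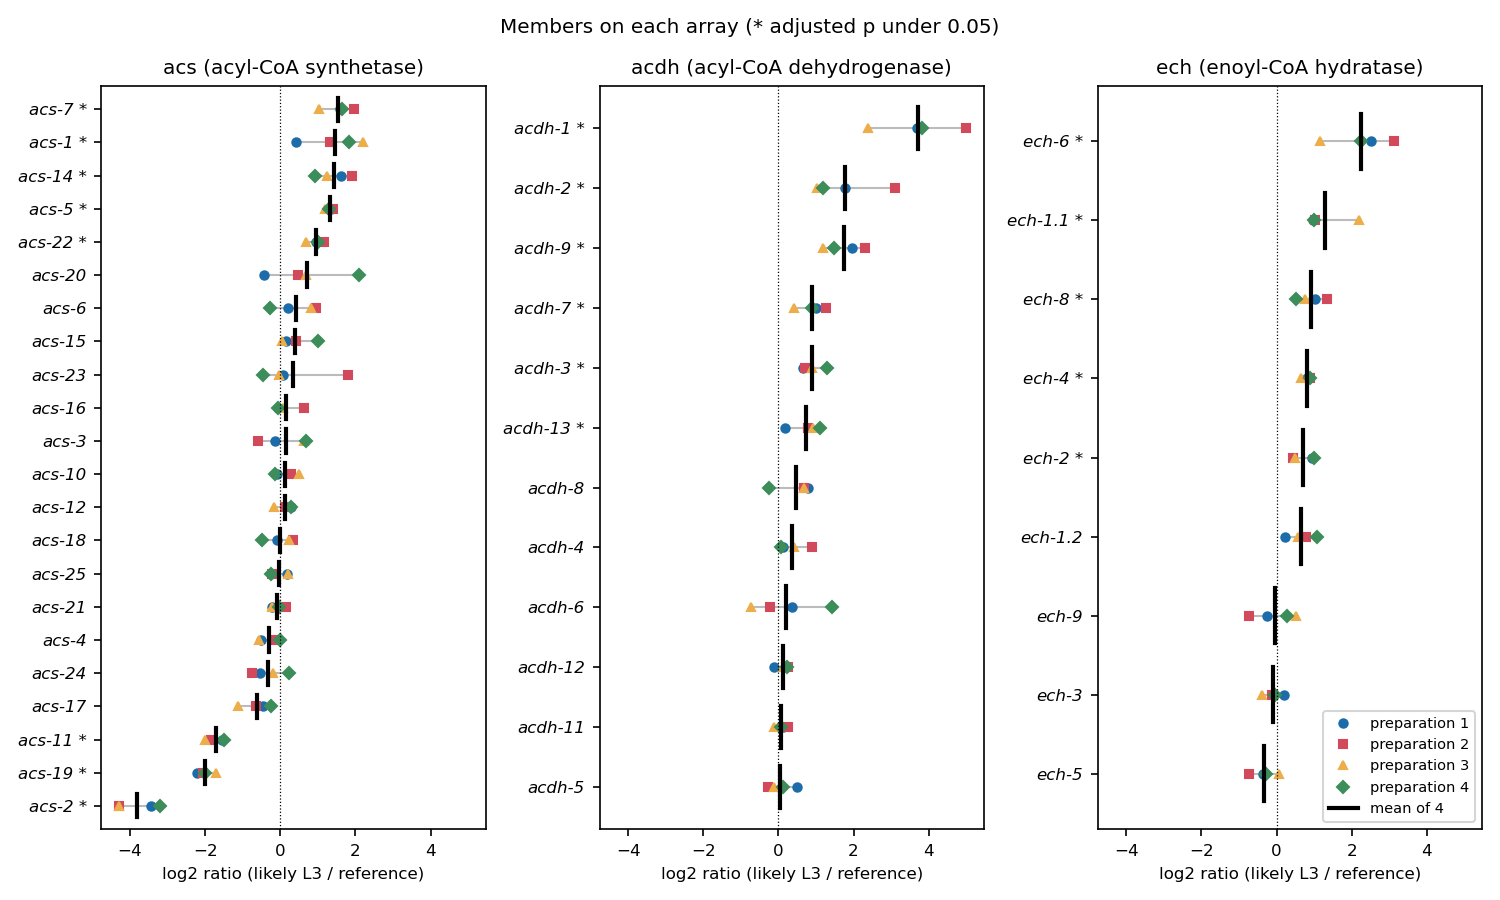
Log2 ratio (likely L3 over reference, horizontal axis) of each of 22 acs, 12 acdh and 9 ech genes on 4 arrays; each coloured symbol is 1 preparation, the black bar is the mean and an asterisk marks an adjusted p under 0.05. The 3 acs genes at the bottom of their panel lie below 0 on 4 arrays, while acdh-1 and ech-6 head theirs with means of 3.72 and 2.26.

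The shift of the acdh and ech genes appeared on each array. The acdh median was 0.57, 0.74, 0.55 and 1.00 in preparations 1 to 4, and the ech median was 0.81, 0.78, 0.56 and 0.89. The acs median stayed near 0, at -0.07, 0.30, 0.14 and -0.02. A total of 7 acdh and 6 ech genes lay above 0 on all 4 arrays, and 0 of either lay below 0 on all 4. For acs genes these counts were 6 and 5. Over all genes measured on 4 arrays, 22.5% lay above 0 on every array and 23.7% below, 46.2% in all.

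**Figure D2:**
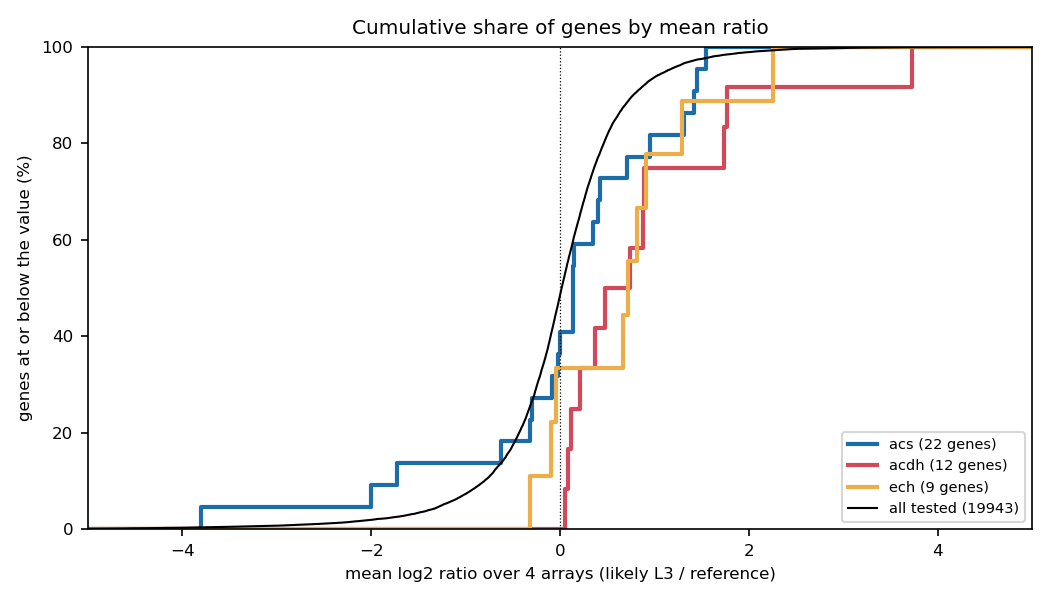
Share of genes (percent, vertical axis) with a mean log2 ratio at or below the value on the horizontal axis, for 22 acs genes, 12 acdh genes, 9 ech genes and all 19943 genes and probes tested. The acdh and ech curves lie to the right of the curve of all tested genes, with medians of 0.61 and 0.72 against 0.02, and the acs curve extends to both sides.

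Among the synthetases, the lowest ratio of any member belonged to acs-2. This mitochondrial acyl-CoA synthetase gene is known for its rise on fasting under the nuclear receptor NHR-49, ahead of fatty acid oxidation. acs-2 had log2 ratios of -3.43, -4.29, -4.30 and -3.20 in preparations 1 to 4. Its mean of -3.81 ± 0.57 is 14.0-fold lower in L3 (adjusted p = 0.000549), and every array lay far below 0. acs-19, which resembles acetyl-CoA synthetases, had -2.21, -2.07, -1.71 and -2.01, a mean of -2.0 ± 0.21 and a 4.0-fold lower level in L3 (adjusted p = 0.00102). acs-11 had -1.55, -1.85, -1.99 and -1.49, with a mean of -1.72 ± 0.24 (3.3-fold lower, adjusted p = 0.00164). In both genes the preparations lay close together. These 3 genes were the only members called lower, and the calls held without any 1 preparation. Over all genes and probes, 6.40% were called lower by at least 2-fold.

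Among the synthetase genes called higher by at least 2-fold, a group that held 4.61% of all genes and probes, acs-7 was highest. Its enzyme is known for attaching indole groups to ascarosides, the small-molecule signals of nematodes. acs-7 had 1.58, 1.95, 1.02 and 1.64, with a mean of 1.55 ± 0.39 (2.92-fold higher in L3, adjusted p = 0.00388). acs-14 had 1.61, 1.91, 1.24 and 0.91, averaging 1.42 ± 0.43 (2.67-fold, adjusted p = 0.00612). Both genes were above 0.9 on every array.

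acs-5 had the most uniform values of all members, at 1.36, 1.39, 1.19 and 1.31, with a mean of 1.31 ± 0.09 (2.48-fold higher, adjusted p = 0.00246). acs-1 acts on monomethyl branched-chain fatty acids, which worms need for growth. acs-1 had 0.42, 1.32, 2.21 and 1.84, a wide spread in which preparation 1 was lowest. Its mean was 1.45 ± 0.78 (2.73-fold, adjusted p = 0.0211). It did not pass once preparation 2, 3 or 4 was left out (adjusted p = 0.05001, 0.0704 and 0.0746).

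The fatty acid transport protein-like genes acs-22 and acs-20, whose products are known to act in the barrier function of the cuticle, gave different pictures. acs-22 had 0.94, 1.17, 0.70 and 1.01, with a mean of 0.96 ± 0.20, and was higher in L3 (1.94-fold, adjusted p = 0.00883). acs-20 had -0.42, 0.47, 0.68 and 2.09, so 1 preparation lay below 0 and preparation 4 well above the others. Its mean of 0.71 ± 1.04 did not pass (adjusted p = 0.235). The difference between the 2 genes was not tested.

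The other 13 acs genes did not pass either. acs-17 came nearest to the threshold, with -0.47, -0.65, -1.12 and -0.25, a mean of -0.62 ± 0.37 and an adjusted p of 0.0634. All 4 arrays lay below 0, and with the month in the array titles as a block the gene passed (adjusted p = 0.0442). That block lowered standard errors, and over all genes and probes the calls lower rose from 2149 to 2491. The remaining 12 had means between -0.32 for acs-24 and 0.43 for acs-6. They include acs-3, known for a role in fat uptake, at 0.14 ± 0.62, and acs-4 at -0.30 ± 0.28, below 0 on 4 of 4 arrays. The value of the pseudogene acs-23 rested on preparation 2, at 0.08, 1.81, -0.03 and -0.47.

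acdh-1 stood out among the dehydrogenase genes. Its enzyme oxidises short-chain acyl-CoA, including propionyl-CoA at the head of the propionate shunt, and in C. elegans it is widely used as a reporter of diet and vitamin B12. acdh-1 had log2 ratios of 3.69, 5.0, 2.40 and 3.81. The mean of 3.72 ± 1.07 is 13.2-fold higher in L3 (adjusted p = 0.00237) and was the 14th highest of all 19943 genes and probes. Every preparation was above 2, with preparation 3 the lowest and preparation 2 the highest.

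acdh-2, close to acdh-1 in name and enzyme class, had 1.77, 3.10, 1.03 and 1.2 with a mean of 1.77 ± 0.94 (3.42-fold, adjusted p = 0.018). Preparation 2 was again highest and preparation 3 lowest. Its call was lost without preparation 1 (adjusted p = 0.0762). Genes of 1 family can be similar in sequence and probes may hybridise to more than 1 of them; probe sequences were not used here. acdh-9 had 1.96, 2.31, 1.19 and 1.49 with a mean of 1.74 ± 0.49 (3.34-fold, adjusted p = 0.0041). All 3 genes had the order of preparations 2, 1, 4 and 3 from high to low, except that preparation 4 exceeded 1 for acdh-1.

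With smaller means, acdh-7, acdh-3 and acdh-13 were also called higher in L3. acdh-7, which resembles medium-chain dehydrogenases, averaged 0.89 ± 0.36 and ranged from 0.41 to 1.27. Its 2 probes differed by at most 0.20 on an array. acdh-3 averaged 0.88 ± 0.29 with 2 probes that differed by at most 0.57. acdh-13, the called dehydrogenase gene nearest to the threshold, had 0.17, 0.78, 0.91 and 1.10 and averaged 0.74 ± 0.40 (adjusted p = 0.0426). Preparation 1 was lowest and all 4 were above 0.

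These 3 calls were less stable than those of acdh-1 and acdh-9, which were kept without any 1 preparation. Leaving out preparation 1, 2 or 4 ended the call of acdh-7 (adjusted p = 0.0881, 0.0517 and 0.0652), and leaving out 1, 3 or 4 that of acdh-3 (0.0521, 0.0637 and 0.0539). acdh-13 was lost without 2, 3 or 4 (0.0969, 0.136 and 0.129), with arrays scaled to a common spread (0.0589) and with quantile normalization (0.0509). Only 3 acdh genes were called without preparation 1, and 3 without preparation 4. Over all genes and probes, calls higher fell from 1657 to 793 and 1092, respectively.

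The 6 acdh genes that did not pass lay between 0.05 and 0.47. acdh-8, another medium-chain type, came nearest with 0.79, 0.67, 0.68 and -0.25 (mean 0.47 ± 0.49, adjusted p = 0.17), where only preparation 4 was below 0. acdh-5, the lowest of the prefix, had 0.49, -0.29, -0.12 and 0.12 and averaged 0.05 ± 0.34. acdh-12, which resembles very-long-chain dehydrogenases, averaged 0.12 ± 0.17. acdh-11, known for its part in fatty acid desaturation at high temperature, averaged 0.08 ± 0.16, and acdh-4 0.37 ± 0.38. acdh-6 varied most, at 0.36, -0.23, -0.72 and 1.43.

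Among the hydratase genes ech-6 was highest. It encodes an enoyl-CoA hydratase of mitochondria that takes part in the propionate shunt and in branched-chain amino acid breakdown. ech-6 had 2.51, 3.13, 1.14 and 2.25 with a mean of 2.26 ± 0.83 (4.78-fold higher in L3, adjusted p = 0.00576). As for acdh-1, preparation 2 was highest and preparation 3 lowest, and the call was kept without any 1 preparation.

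ech-1.1 and ech-1.2 resemble the alpha subunit of the mitochondrial trifunctional protein, which joins hydratase and hydroxyacyl-CoA dehydrogenase activities for long chains. ech-1.1 had 0.98, 1.01, 2.20 and 1.00. Preparations 1, 2 and 4 nearly coincided and preparation 3 stood above them, with a mean of 1.29 ± 0.60 (2.45-fold, adjusted p = 0.0161, and 0.0528 without preparation 1). ech-1.2 had 0.23, 0.78, 0.56 and 1.08, above 0 on each array, and averaged 0.66 ± 0.36. It was the ech gene just outside the threshold (adjusted p = 0.0516). It passed with the array month as a block (0.0368), which lowered standard errors, and when genes lacking a value on any array were left out (0.0481).

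ech-8 and ech-9 are neighbours on chromosome IV in WBcel235 and were the only adjacent protein-coding genes among the measured members. ech-8 had 1.01, 1.34, 0.77 and 0.52 and averaged 0.91 ± 0.35 (1.88-fold, adjusted p = 0.0188). ech-9 had -0.26, -0.74, 0.52 and 0.29 and averaged -0.05 ± 0.57, so its preparations lay on both sides of 0. On each array ech-8 was above ech-9, and the difference between them was not tested.

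ech-4, which resembles enoyl-CoA isomerases, had closely spaced values of 0.81, 0.89, 0.66 and 0.89, with a mean of 0.81 ± 0.11 (adjusted p = 0.0119). ech-2 had 0.96, 0.43, 0.49 and 1.00, averaged 0.72 ± 0.30 and was the called ech gene nearest to the threshold (adjusted p = 0.033). The lowest of the prefix, ech-5, had -0.35, -0.75, 0.07 and -0.27 and averaged -0.32 ± 0.34, and ech-3 averaged -0.09 ± 0.24. Neither passed.

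The ech counts depended on single preparations, and calls over all genes and probes fell as well. Those higher fell from 1657 to 793 without preparation 1 and to 925 without preparation 3. Without preparation 1 only ech-6 was called, since ech-2, ech-4 and ech-8 were lost as well (adjusted p = 0.129, 0.0553 and 0.0831). Without preparation 3, 3 ech genes were called, with ech-2 and ech-8 lost (0.0749 and 0.059). ech-2 was also lost without preparation 4 (0.105).

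acdh-1 and ech-6 belong to the propionate shunt, a mitochondrial route that worms use when vitamin B12 is short and the B12-dependent route through methylmalonyl-CoA is limited. The next steps are catalysed by the hydrolase of hach-1, the dehydrogenase of hphd-1 and the aldehyde dehydrogenase of alh-8. hach-1 had 1.68, 1.43, 0.62 and 1.78, with a mean of 1.38 ± 0.53 (2.6-fold higher, adjusted p = 0.00967, and 0.0527 without preparation 1). hphd-1 had 2.52, 3.32, 0.18 and 1.74, averaging 1.94 ± 1.34 (3.84-fold, adjusted p = 0.0363), and missed the threshold with preparation 1, 2 or 4 left out (adjusted p = 0.14, 0.0844 and 0.0906). alh-8, named after its values were seen, had 0.11, 0.65, -0.86 and -0.06 and averaged -0.04 ± 0.62 (adjusted p = 0.922).

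Preparation 3 was the lowest of the 4 for each of these 5 enzymes. The same held for nhr-68, which encodes a nuclear receptor that turns on shunt genes together with NHR-10. nhr-68 had 1.45, 1.66, -0.03 and 1.6, with a mean of 1.17 ± 0.80 (adjusted p = 0.0434). Leaving out preparation 1, 2 or 4 ended this call (adjusted p = 0.155, 0.12 and 0.13), as did scaling the arrays (0.0511). nhr-10 averaged -0.40 ± 0.26 and did not pass. It was also lowest in preparation 3, at -0.62, with -0.59 in preparation 2. Over 909 genes with values on 4 arrays that were called higher by at least 2-fold, preparation 3 was lowest for 28.6% and preparation 2 highest for 58.6%. Of the 9 members among them, preparation 3 was lowest for 6 and preparation 2 highest for 7. Preparation 3 was lowest for pcca-1, pccb-1 and mmaa-1 of the B12-dependent route too, and preparation 1 for mce-1 and mmcm-1. The spread of all ratios was widest in preparation 2 (median absolute deviation 0.58, against 0.28 to 0.39 on the other arrays). The shared order of these genes was noticed in these data and was not tested.

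**Figure D3:**
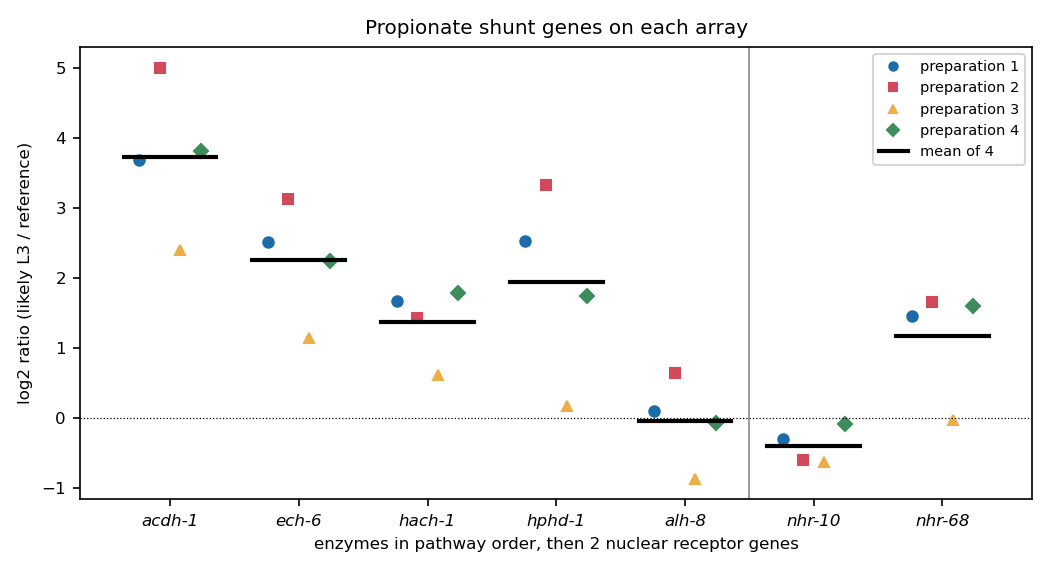
Log2 ratios (likely L3 over reference, vertical axis) of the propionate shunt enzyme genes in pathway order and of the nuclear receptor genes nhr-10 and nhr-68; each symbol is 1 preparation and the bar is the mean of 4. Preparation 3 (triangles) is lowest for every gene shown, from 2.40 for acdh-1 to -0.86 for alh-8.

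The other genes of propionate breakdown did not pass. With hach-1 and hphd-1, 2 of 8 measured genes on this list were called higher and 0 lower in limma, with a list median of 0.14. Of all genes and probes 8.31% were called higher and 10.8% lower. The same 2 genes had an unadjusted p under 0.05, against 35.1% of all genes and probes. The genes of the B12-dependent route, pcca-1, pccb-1, mce-1, mmcm-1 and mmaa-1, had means from -0.20 for mce-1 to 0.37 for pcca-1. pcca-1, which encodes a propionyl-CoA carboxylase subunit, was above 0 on 4 of 4 arrays (adjusted p = 0.172). The count of higher genes was 0 without preparation 1, and 1 without preparation 2 or 4.

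In the carnitine shuttle and the later steps of mitochondrial oxidation, 6 of 9 measured genes were higher and 1 lower in L3, with a list median of 0.81. The shares over all genes and probes were 8.31% higher and 10.8% lower. The thiolase genes kat-1 and acaa-2 lay at 1.28 ± 0.46 and 1.23 ± 0.56, and the carnitine palmitoyltransferase-like gene cpt-5 at 1.15 ± 0.70. hacd-1, a hydroxyacyl-CoA dehydrogenase gene, went the other way. It had -3.08, -2.28, -1.64 and -1.81, all far below 0, with a mean of -2.20 ± 0.64 (4.61-fold lower, adjusted p = 0.00335). The genes that did not pass were cpt-6 (0.69 ± 0.87) and the electron transfer gene let-721 (0.23 ± 0.28), both named after their values were seen. Without preparation 1 only 2 genes of this list were called higher; acaa-2 and cpt-5 were among those lost (adjusted p = 0.0774 and 0.117), and cpt-5 was lost without 2 or 3 as well (0.0835 and 0.0968).

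Branched-chain amino acid breakdown uses acyl-CoA dehydrogenases and hydratases after the branched-chain keto acid dehydrogenase. Of 7 measured genes of this route 6 were higher and 0 lower, with a list median of 1.13 and all 7 above 0 on every array. Over all genes and probes 8.31% were called higher, and 22.5% of those with 4 values lay above 0 on every array. mccc-1, a methylcrotonyl-CoA carboxylase gene, had 1.32, 1.94, 1.59 and 1.6 and a mean of 1.61 ± 0.26 (3.06-fold, adjusted p = 0.00213). dbt-1, the acyltransferase of the keto acid dehydrogenase, averaged 1.22 ± 0.31, and the aminotransferase gene bcat-1 1.21 ± 0.68. bckd-1B did not pass (0.51 ± 0.20), and its 2 probes disagreed, with means of 1.12 and -0.10. In limma at probe level the first passed (adjusted p = 0.00451) and the second did not (0.758). The values of bckd-1B above 0 on every array are thus those of the probe average. The gene passed with the month block, which lowered standard errors (adjusted p = 0.0471). Between 2 and 3 genes of this list were called when any 1 preparation was left out; leaving out 1 or 4 ended the call of bcat-1 (adjusted p = 0.0838 and 0.0805).

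Acyl-CoA binding protein genes split into a pair called higher in L3 and 3 that did not pass, where 8.31% of all genes and probes were called higher. acbp-3 had 2.25, 1.68, 1.98 and 1.24 with a mean of 1.79 ± 0.43 (3.45-fold, adjusted p = 0.00296), and acbp-1 averaged 1.30 ± 0.27 (2.46-fold, adjusted p = 0.00425). Both were above 0.9 on every array and were called without any 1 preparation. acbp-5, acbp-6 and maa-1 had means between 0.02 and 0.12.

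Of the 9 regulators measured, nhr-68 was higher and nhr-49 lower, with a list median of -0.31. The share called in either direction, 22.2%, was near the 19.1% of all genes and probes. nhr-49 encodes the nuclear receptor that drives acs-2 in fasted worms. It had -0.89, -0.98, -0.59 and -0.32, below 0 on every array, with a mean of -0.69 ± 0.30 (adjusted p = 0.0363), and was lost without preparation 1, 2 or 3 (0.137, 0.0915 and 0.0988). daf-16, named after its values were seen, averaged -0.55 ± 0.25 and passed with scaled arrays, quantile normalization or the month block (0.0492, 0.0475 and 0.0416). The month block lowered standard errors. In fatty acid synthesis, fasn-1, the fatty acid synthase gene, averaged 1.14 ± 0.61 (adjusted p = 0.0251) and was lost without preparation 2, 3 or 4 (0.0624, 0.0866 and 0.0845). mlcd-1, placed on the same list, encodes a malonyl-CoA decarboxylase, which breaks down malonyl-CoA and is not an enzyme of synthesis. mlcd-1 averaged -0.95 ± 0.32 (adjusted p = 0.0141) and was lost without 1 or 3 (0.0663 and 0.0625). pod-2, the acetyl-CoA carboxylase gene, lay at -0.24 ± 0.38 and did not pass.

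**Figure D4:**
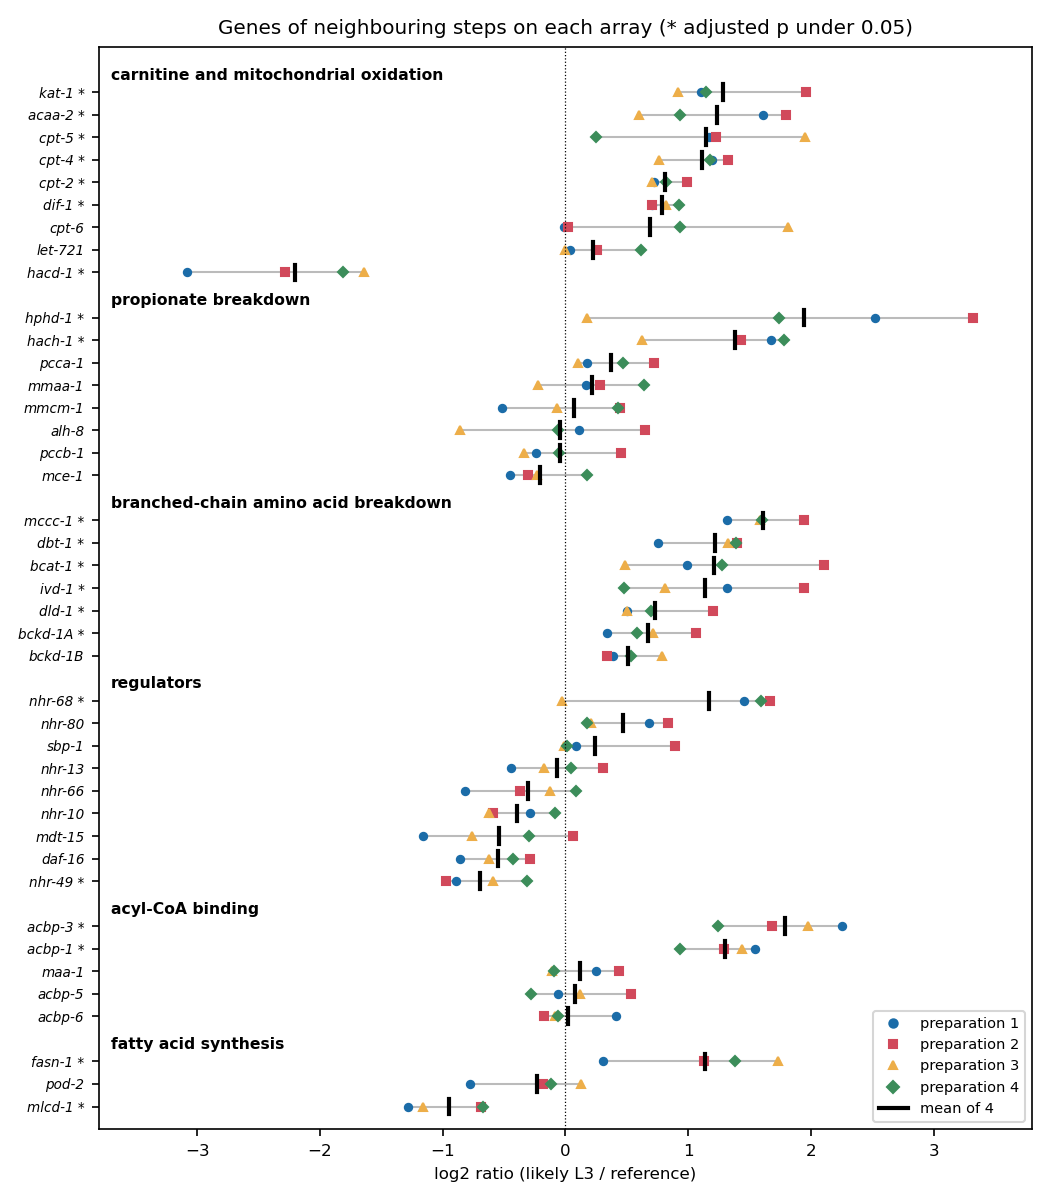
Log2 ratios (likely L3 over reference, horizontal axis) of 41 measured genes of neighbouring steps, grouped by role; each coloured symbol is 1 preparation, the black bar is the mean and an asterisk marks an adjusted p under 0.05. Most carnitine, mitochondrial and branched-chain genes lie above 0, while hacd-1 lies at -2.20.

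The median SD over the preparations was 0.36 for acs, 0.39 for acdh and 0.35 for ech genes, and 0.36 over all genes and probes tested. Wide spread was found both in strongly changed genes, such as acdh-1 and acdh-2, and in genes that did not pass, such as acs-20, acs-23 and acdh-6. Of the 19 calls 10 were kept when any 1 preparation was left out, those of acs-2, acs-5, acs-7, acs-11, acs-14, acs-19, acs-22, acdh-1, acdh-9 and ech-6. Leaving out 1 preparation lowered the calls higher over all genes and probes as well, from 1657 to between 793 and 1092. In all, 18 of the 19 member calls were kept in every setting that used 4 arrays, acdh-13 being the exception. Several of these settings left the means of members unchanged.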

How the data were processed

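As deposited, each array is a column of log2 ratios between its 2 channels. How the authors corrected background, normalized and filtered spots is not recorded in the labels. Between 99.96% and 100.0% of the unlogged values were multiples of 0.001 (within 0.02 of a step), against 5.13% to 5.42% of their inverses, which fixes the log base but not the direction of division. The deposited medians were 0.02, 0.00, -0.03 and -0.01. Signal over background is unknown. The number of arrays, 4, limits the precision.

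Of 21632 probes 16450 had 1 symbol in the annotation table, 247 several and 4935 none; 16360 symbols were updated through Entrez numbers to RefSeq WBcel235. Probes of a gene were averaged, arrays were centred on their medians, and genes with at least 3 values were fitted with limma 3.58.1 in R 4.3.3 (lmFit with an intercept, eBayes, two-sided). Variation of the reference itself does not enter this test. In data simulated on the 19943 genes, the fit recovered 16% of 2-fold and 60% of 4-fold changes, with 2 false calls among 19743 unchanged genes. Nearly all genes were thus unchanged in the simulation, whereas 19.1% were called in the measured data. The adjusted p depends on that share, so the recovered shares do not carry over to the measured data.

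Members, gene lists and the naming rule were chosen with earlier results of these data known. The rule gave values on every array for called members of at least 2-fold, the extremes of each prefix and the genes nearest to the threshold; other genes so described were added after seeing their values. Per list it named up to 3 called genes in each direction. Sequences were not used here.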

Additional observations from a re-analysis of the deposited data

Results flagged for a closer look

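Of 87 sets of 4 values examined (43 members, 41 genes of the neighbouring lists and 3 prefix medians), 6 held a preparation far from the other 3 by Dixon's ratio, which chance alone gives for about 1 set in 20. ech-1.1 lay at 2.20 in preparation 3 and between 0.98 and 1.01 in the others. acdh-8 lay at -0.25 in preparation 4, against 0.67 to 0.79, and acs-16 at 0.64 in preparation 2, against -0.06 to 0.06. Among the neighbouring genes, nhr-68 lay at -0.028 in preparation 3 (1.45 to 1.66 in the others), dbt-1 at 0.75 in preparation 1 (1.32 to 1.4) and sbp-1, a lipid synthesis regulator gene, at 0.89 in preparation 2 (-0.01 to 0.09).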

How the results depend on the processing

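Each log2 ratio already pairs an L3 preparation with the reference on the same array. Further pairing was not possible because the labels give 1 group only. Direction changed for 0 called members in any setting. Of 605 values of members, 544 kept direction and side of the threshold. The filters on the number of arrays, the month block and the robust prior left the means of members unchanged. So did the probe level for single-probe genes, and direction could not change in these settings. With 1 preparation left out, 3 to 4 acdh and 1 to 5 ech genes were called higher, and 793 to 1092 of all genes higher and 1013 to 1640 lower. Preparations 1 and 2, and 3 and 4, share a month in the array titles. In 1 and 2 alone, 3 acs, 3 acdh and 1 ech genes were higher, with 703 of all genes higher and 824 lower. In 3 and 4 alone, 4 acs, 5 acdh and 2 ech genes were higher, with 726 of all genes higher and 987 lower. In either pair 3 acs genes were lower. The month block had a correlation of -0.117, which lowered standard errors. Counts of the neighbouring lists under each setting were added after seeing the data.

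Genes near 0 that did not pass changed sign. ech-9 lay at 0.041 with scaled arrays and 0.038 with quantile normalization, and the second probe of bckd-1B at -0.10. In preparations 1 and 2 alone, acs-3 (-0.37), acs-18 (0.12), ech-3 (0.035), pccb-1 (0.11), mmcm-1 (-0.036) and alh-8 (0.38) turned. In 3 and 4 alone, acs-23 (-0.25), acs-24 (0.018), acdh-11 (-0.031), ech-9 (0.41), sbp-1 (-0.0008), acbp-5 (-0.081), acbp-6 (-0.071), maa-1 (-0.10) and pod-2 (0.0056) did. With 1 preparation left out, the ranges that crossed 0 were acs-3 -0.034 to 0.39, acs-16 -0.018 to 0.21, acs-18 -0.11 to 0.15, acs-23 -0.14 to 0.62, acs-25 -0.10 to 0.057, acdh-5 -0.10 to 0.16, acdh-6 -0.20 to 0.52, ech-3 -0.19 to 0.0078, ech-9 -0.24 to 0.18, pccb-1 -0.21 to 0.054, mmcm-1 -0.052 to 0.27, alh-8 -0.27 to 0.23, nhr-13 -0.19 to 0.059, acbp-5 -0.075 to 0.20 and acbp-6 -0.10 to 0.089. The cause was not tested.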
